A study of Mus musculus with 18 samples.

Results

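The 9 receptor chains followed here, Il12rb1, Il12rb2, Il18r1, Il18rap, Il6ra, Il6st, Il27ra, Ifngr1 and Ifngr2, make up the receptors for IL-12, IL-18, IL-6, IL-27 and interferon-gamma (IFN-γ). They were taken from the count table by gene symbol, with no threshold on their values but with earlier results of these data known, and are 9 of its 23337 genes and 9 of the 11118 genes that passed the filter on low counts. Il12rb2 and Ifngr2 passed that filter through the subsets in which they were high, since they were at or near 0 in others.

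RNA was measured in invariant natural killer T (iNKT) cells, T cells whose receptor recognises lipids on CD1d, sorted from thymi of WT mice and of SKG mice, all on the BALB/c background. SKG mice carry a spontaneous germ-line point mutation in Zap70, the kinase that relays T cell receptor signals, and the mutant kinase signals weakly in every cell that uses it. The subsets were sorted with CD1d tetramer as NKT1 (low ICOS, CD49a positive), NKT2 (high ICOS, high CD4 and T cell receptor β, without CD49a or Sdc-1) and NKT17 (high ICOS, Sdc-1 positive, without CD49a). None of the 9 receptor proteins was used in the gates. The 6 groups, WT NKT1, SKG NKT1, WT NKT2, SKG NKT2, WT NKT17 and SKG NKT17, hold 3 libraries each, 18 in all. The age of these mice and the number of animals behind a library are not given in the sources used here. The p-values therefore measure the spread between these libraries, which may be partly technical.

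As background, IL-12 binds a pair of chains, Il12rb1, which is shared with the IL-23 receptor, and Il12rb2, and signals mainly through STAT4. IL-18 binds Il18r1, and its co-receptor Il18rap then completes a receptor that signals through MyD88 and IRAK kinases. IL-6 binds Il6ra, which recruits the shared signalling chain gp130 (Il6st) and activates STAT3, while Il27ra pairs with gp130 for IL-27. IFN-γ binds Ifngr1, and Ifngr2 is needed to bring in the kinase that starts signalling. In lymphocytes of the type-1 kind, IL-12 and IL-18 together drive IFN-γ production, and loss of Ifngr2 is a known way in which such cells become less responsive to IFN-γ.

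The libraries held 4391029 to 8895917 counts. Levels are given in CPM, which relates the counts of a gene to the total of its library, scaled by the trimmed mean of M-values (TMM). A gene was called where edgeR's quasi-likelihood test, two-sided, gave a Benjamini-Hochberg adjusted p under 0.1 over the 11118 genes together with a fold change of at least 1.5, and adjusted p has this meaning throughout. The labels were checked against 6 markers of each subset. The summed NKT17 markers were at 2382 to 2483 CPM in NKT17 libraries and at most 14.3 CPM in the others. The NKT1 markers were at 3173 to 4831 CPM in NKT1 libraries and at most 363 CPM elsewhere. The NKT2 markers were at 1891 to 2439 CPM in NKT2 libraries but also at 1543 to 1903 CPM in NKT17 libraries. B cell markers summed to at most 41.9 CPM, myeloid markers to at most 23.8 CPM and red cell markers to at most 1.45 CPM in any library, with Pax5 at 0 throughout. In such pools of cells, fewer cells of a type and less RNA per cell cannot be told apart. Zap70 itself was not called in any subset between SKG and WT (log2 fold change -0.24, -0.39 and -0.58 in NKT1, NKT2 and NKT17, the last 2 at adjusted p = 0.0378 and 0.00174 but under the fold-change minimum), and its point mutation is not visible in counts.

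Between subsets the 9 chains differed widely. Il12rb2 and Ifngr2, which passed the filter only outside the subsets where they were near 0, had to differ between NKT1 and the others and are left out of the counts with NKT1. Of the other 7 chains 7 were called between NKT1 and NKT2 in WT cells, where 27.5% of all genes tested were called, and 5 between NKT1 and NKT17 (all genes 24.7%). In SKG cells 5 of the 7 (all genes 18.7%) and 6 of the 7 (all genes 22.8%) were called in the same comparisons. Between NKT17 and NKT2 6 of all 9 were called in WT (all genes 20.0%) and 6 in SKG (all genes 18.8%). These comparisons share their libraries within a genotype. The 6 include Il12rb2 in each genotype, though it was near 0 in both NKT17 and NKT2. Its libraries overlapped there, with an adjusted p of 0.0863 in WT and 0.0884 in SKG. Each subset had its own combination. NKT1 held both IL-12 receptor chains, the most Il18rap and Ifngr1, and almost no Ifngr2. NKT2 held the most Il6ra and little Il18rap. NKT17 held the most Il12rb1 and Il18r1 and intermediate Ifngr1.

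**Figure D1:**
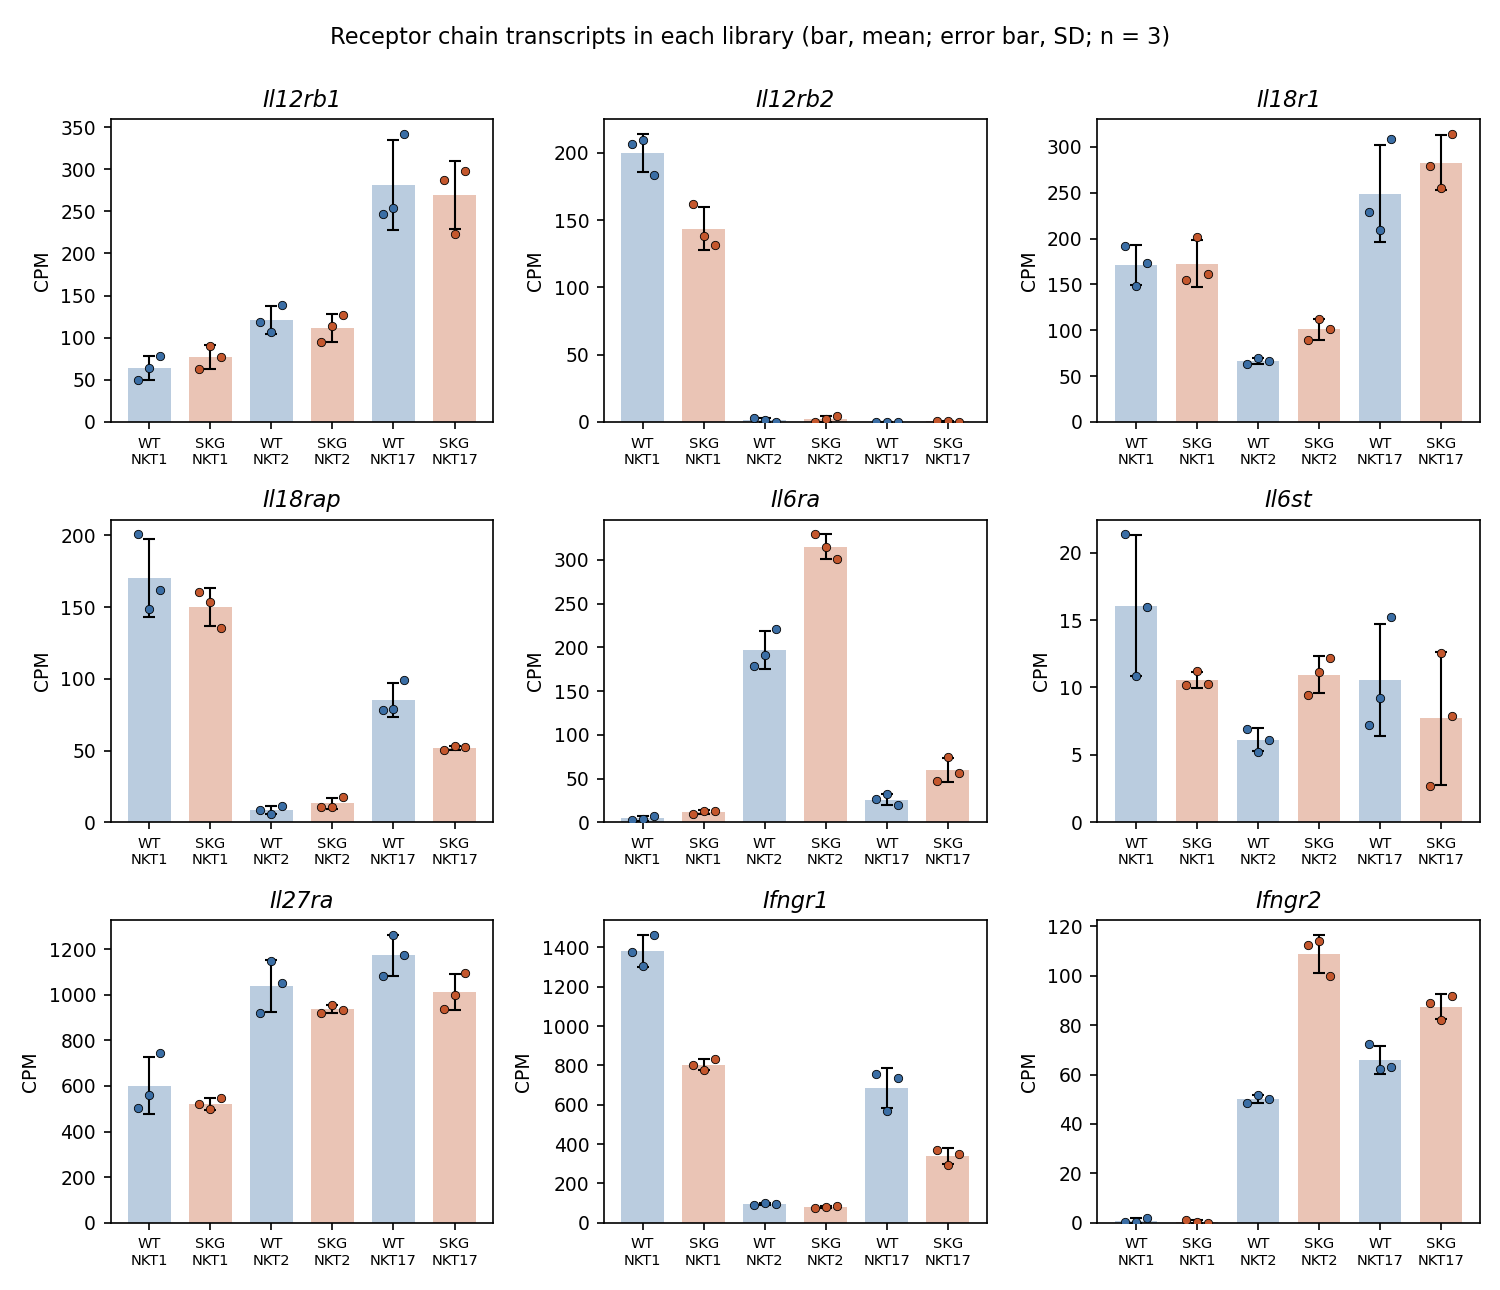
Level of each of the 9 receptor chains, in CPM, in the 18 libraries, with 1 panel per gene and an axis that starts at 0. Points are libraries, bars group means and error bars the SD of 3 libraries, with WT in blue and SKG in orange. Il12rb2 is high only in the NKT1 bars, Ifngr2 is near 0 only in the NKT1 bars, and Il6ra is highest in NKT2.

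**Figure D2:**
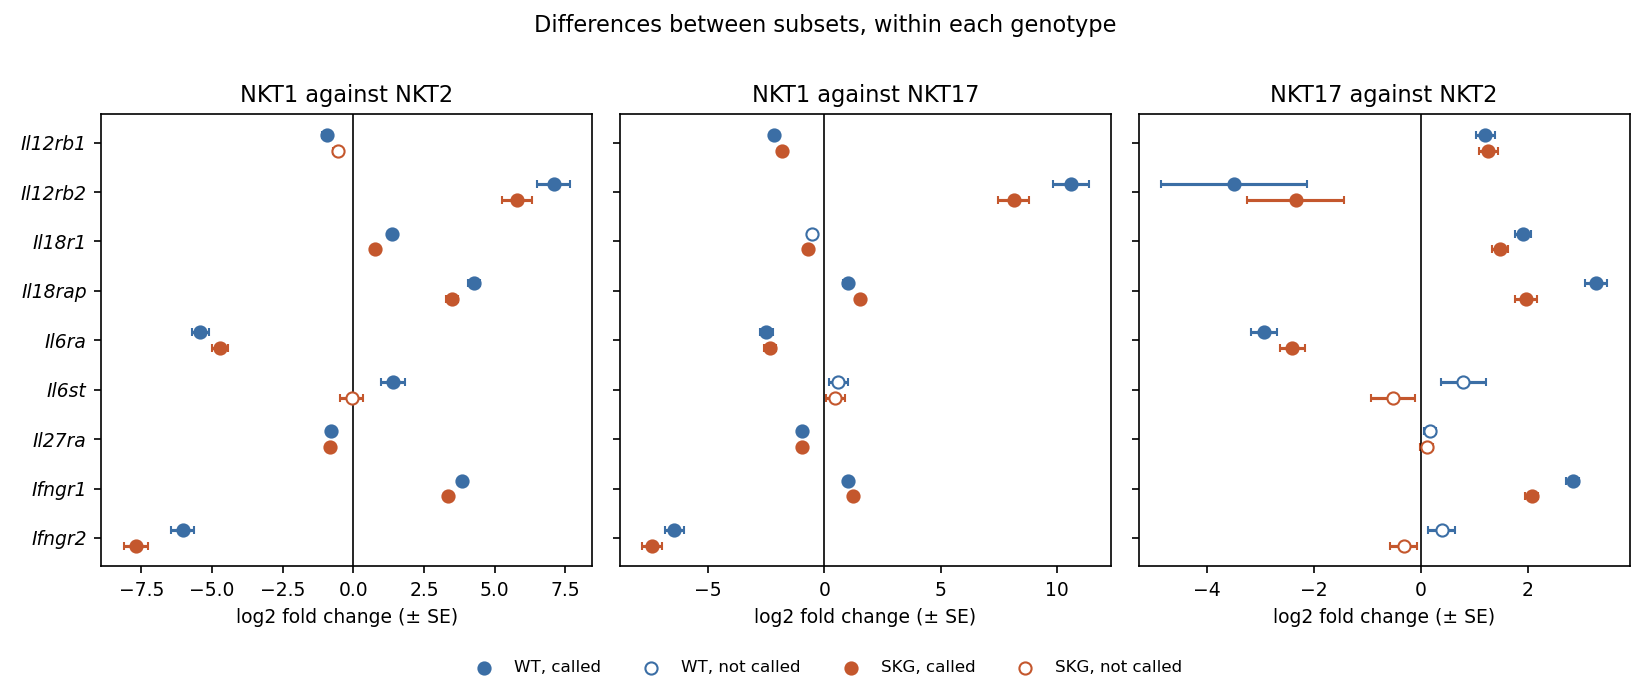
Log2 fold change between subsets for each chain, with its SE, in WT (blue) and SKG (orange), where filled points were called and open points were not. Each panel has its own scale. Il12rb2, Il18rap and Ifngr1 lie to the right, and Ifngr2 and Il6ra to the left, in NKT1 against NKT2 in both genotypes.

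Between SKG and WT the differences were smaller. In NKT1 2 of 9 chains were called, where 3.27% of all genes were (median log2 fold change of the 9 -0.20, of all genes -0.0067). In NKT2 3 of 9 were called, where 7.95% of all genes were (medians 0.60 and -0.0036), and the 3 became 1 without WT NKT2 replicate 1. In NKT17 3 of 9 were called, where 8.37% of all genes were (medians -0.063 and 0.0045). Il6ra was higher in SKG cells of all 3 subsets. Ifngr1 was lower in SKG NKT1 and NKT17, Ifngr2 and Il18r1 were higher in SKG NKT2, and Il18rap was lower in SKG NKT17. Il12rb1, Il12rb2, Il6st and Il27ra were called in none of the 3 subsets.

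**Figure D3:**
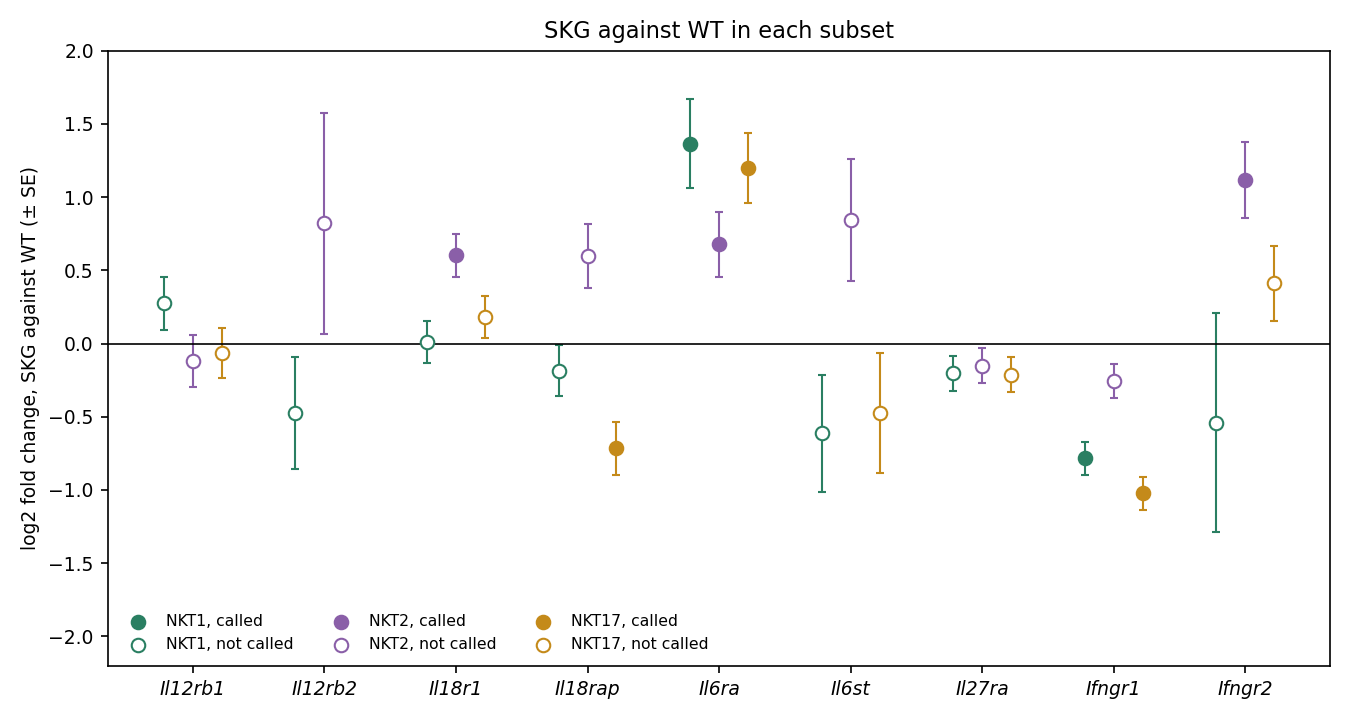
Log2 fold change of SKG against WT, with its SE, for each chain in NKT1 (green), NKT2 (purple) and NKT17 (ochre), where filled points were called. Il12rb2 in NKT17 is left out because both groups were at or near 0. Il6ra lies above 0 in the 3 subsets and Ifngr1 below 0, with its NKT2 point open.

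The chains of the IL-12 receptor followed opposite orders. Il12rb2 (chr6:67241312-67326182, minus strand, ENSMUSG00000018341.6, build NCBIM37) was at 207, 209 and 184 CPM in the WT NKT1 libraries and at 162, 138 and 131 CPM in the SKG NKT1 libraries. In WT NKT2 it held 15, 8 and 1 counts, in SKG NKT2 1, 13 and 28 counts, in WT NKT17 0, 0 and 2 counts and in SKG NKT17 7, 2 and 0 counts. No library outside NKT1 exceeded 4.50 CPM, and the lowest NKT1 library was far above that. In WT the fitted level was 136-fold higher in NKT1 than in NKT2 (log2 fold change 7.09, SE 0.58), given as a description since the gene passed the filter through NKT1. This value rested on few counts in NKT2 and was 7.98 without WT NKT2 replicate 1 and 6.49 without replicate 3. Against WT NKT17, which held 2 counts in all, the ratio of summed counts was 1822, with a 95% exact counting interval of 504 to 15047 that covers counting error only.

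In SKG cells the fitted log2 fold change of Il12rb2 was 5.79 (SE 0.53) between NKT1 and NKT2 and 8.13 (SE 0.65) between NKT1 and NKT17. These became 6.63 without SKG NKT2 replicate 3 and 9.47 without SKG NKT17 replicate 1. The 3 SKG NKT1 libraries lay below the 3 WT NKT1 libraries, but the difference was not called (log2 fold change -0.48, SE 0.38, adjusted p = 0.670). NKT17 lay below NKT2 by a test near its threshold in both genotypes (adjusted p = 0.0863 in WT and 0.0884 in SKG), with libraries that overlapped in both. In WT the summed counts stood at 24 against 2, a ratio of 13.0 with a 95% exact counting interval of 3.22 to 113. The calls were lost in 14 of 26 alternative fits in WT and in 16 of 26 in SKG, among them most of those that left out a single library. The adjusted p was 0.278 without WT NKT2 replicate 1 and 0.416 without SKG NKT2 replicate 3.

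The promoter of Il12rb2 is shown because this gene was high in NKT1 alone. The window runs from 250 bases before the start site to 50 bases after it in RefSeq on build GRCm38.p6 (chr6:67376139-67376438, minus strand), 5′ to 3′ on the strand of the gene. The capitals mark 2 matches, the GAS element TTCNNNGAA bound by STAT factors, 123 bases before the start site, and the T-box motif GTGTGA, read here on the opposite strand, 80 bases before it. The matches do not overlap.
Il12rb2: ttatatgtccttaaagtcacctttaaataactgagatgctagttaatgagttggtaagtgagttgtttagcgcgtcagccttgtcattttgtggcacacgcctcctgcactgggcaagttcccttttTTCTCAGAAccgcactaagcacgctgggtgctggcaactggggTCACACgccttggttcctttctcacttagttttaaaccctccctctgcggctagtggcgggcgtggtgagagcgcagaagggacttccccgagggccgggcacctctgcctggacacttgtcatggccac
Windows were found for 7 of the 9 genes, 9 windows in all, and both strands were searched for 4 motifs. The T-box motif was in 1 of the 9 windows and in 14.5% of 32851 windows of all genes. The GAS element was in 2 of 9 and in 8.3% of all, the GATA site AGATAA in 1 of 9 and in 11.2% of all, and the ROR motif AGGTCA in 0 of 9 and in 16.3% of all. The other window with a GAS element was 1 of 3 windows of Il18r1, which held 2 matches.

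Il12rb1 (chr8:73332348-73345323, plus strand, ENSMUSG00000000791.7) was detected in every library. Its mean level was 281 ± 52.9 CPM in WT NKT17 and 269 ± 40.5 CPM in SKG NKT17 (SD, n = 3, as for all CPM means below), 121 ± 16.4 and 112 ± 16.3 CPM in WT and SKG NKT2, and 63.7 ± 14.3 and 77.0 ± 13.8 CPM in WT and SKG NKT1. The subsets were ordered the same way in both genotypes, with no overlap between subsets, while WT and SKG libraries overlapped within each subset. NKT1 was lower than NKT17 by 4.43-fold in WT (log2 fold change -2.15, SE 0.18, adjusted p = 5.64e-09) and by 3.50-fold in SKG (log2 fold change -1.81, SE 0.18, adjusted p = 8.29e-08). NKT17 exceeded NKT2 by 2.32-fold in WT (log2 fold change 1.21, SE 0.18, adjusted p = 2.01e-05). NKT1 was 1.91-fold lower than NKT2 in WT (log2 fold change -0.93, SE 0.18, adjusted p = 0.000348). In SKG that difference was under the fold-change minimum (log2 fold change -0.54, adjusted p = 0.0351), though it passed without SKG NKT1 replicate 2 (-0.67) or SKG NKT2 replicate 1 (-0.64).

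Per length of merged exons, in RPKM (CPM per kilobase), the balance of these chains turned over between subsets. In WT NKT1 Il12rb2 was at 52.7 ± 3.76 RPKM beside 22.2 ± 4.96 RPKM of Il12rb1, and in SKG NKT1 at 37.9 ± 4.19 beside 26.8 ± 4.81 RPKM. In WT NKT17 Il12rb1 was at 97.9 ± 18.4 RPKM while Il12rb2 was at 0.0241 RPKM on average over its 2 counts. Il23r, which pairs with Il12rb1 to form the IL-23 receptor, was at 454 ± 2.85 CPM in WT NKT17 and 245 ± 7.69 CPM in SKG NKT17, and at most 0.507 CPM on average in the other groups. It was lower in SKG NKT17 (log2 fold change -0.89, SE 0.15, adjusted p = 0.000314).

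**Figure D4:**
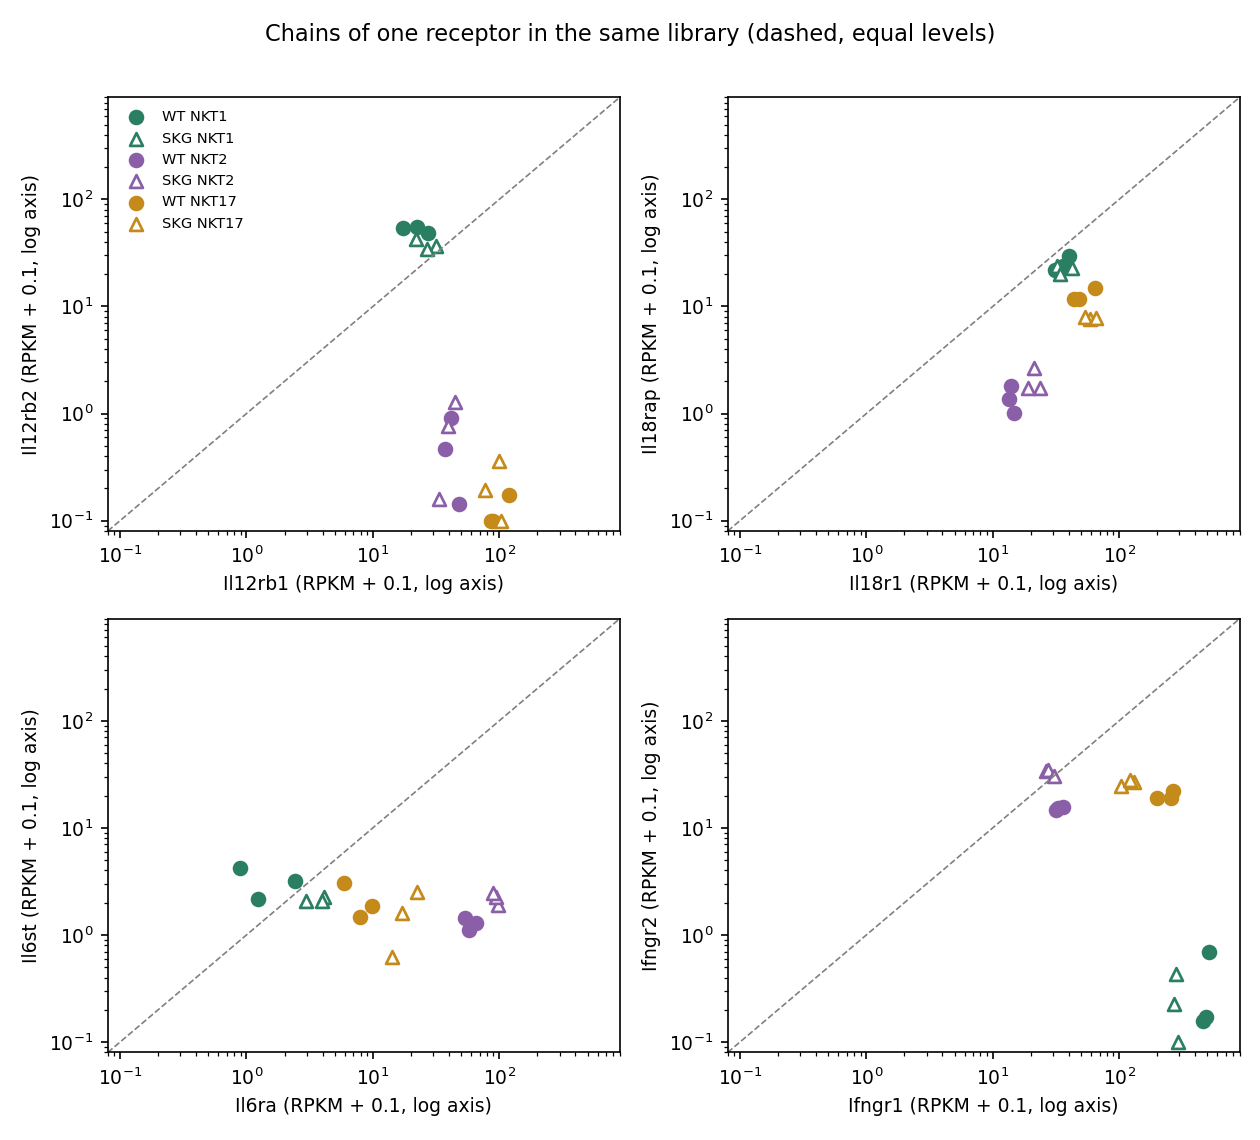
Level per length of the chains of one receptor in the same library, as RPKM plus 0.1 on log axes, for the IL-12, IL-18, IL-6 and IFN-γ receptors. Circles are WT and open triangles SKG libraries, coloured by subset, and the dashed line marks equal levels. The NKT1 libraries sit above the line for the IL-12 receptor and far below it for the IFN-γ receptor, and the NKT2 and NKT17 libraries lie below it for the IL-6 receptor, where Il6st is low.

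Both chains of the IL-18 receptor, whose genes lie 14507 bases apart on the plus strand of chromosome 1 (Il18r1 at chr1:40522397-40557699, plus strand, ENSMUSG00000026070.8 and Il18rap at chr1:40572207-40608550, plus strand, ENSMUSG00000026068.5), were lowest in NKT2. Il18rap, the chain needed for signalling, was at 201, 149 and 162 CPM in WT NKT1, 8.58, 6.12 and 11.5 CPM in WT NKT2 and 78.3, 78.9 and 99.1 CPM in WT NKT17. In SKG it was at 161, 154 and 135, 11.0, 11.0 and 17.5 and 50.4, 53.4 and 52.4 CPM in NKT1, NKT2 and NKT17. No libraries of different subsets overlapped within a genotype. NKT1 exceeded NKT2 by 19.4-fold in WT (log2 fold change 4.28, SE 0.21, adjusted p = 6.42e-13) and by 11.3-fold in SKG (log2 fold change 3.49, SE 0.20, adjusted p = 1.64e-11). NKT1 exceeded NKT17 by 1.99-fold in WT (log2 fold change 1.00, SE 0.18, adjusted p = 0.000128) and by 2.88-fold in SKG (log2 fold change 1.53, SE 0.18, adjusted p = 7.08e-07).

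The 3 SKG NKT17 libraries of Il18rap lay between 50.4 and 53.4 CPM, below the lowest WT NKT17 library. The gene fell 1.64-fold in SKG NKT17 (log2 fold change -0.72, SE 0.18, adjusted p = 0.0130), and within the 2 sample-title tokens that both genotypes share the differences in log2 CPM were -0.64 and -0.89. The meaning of the tokens is not given, and SKG and WT libraries of the same token did not vary together (0 of 18 pairs at r over 0.1). Differences within tokens, here and below, are thus a description of the same libraries and no further support. In NKT2 the Il18rap value was on the other side of 0 and was not called (log2 fold change 0.60, SE 0.22, adjusted p = 0.104), with WT and SKG libraries that overlapped. That test lay near its threshold. It passed with DESeq2, and when WT NKT1 replicate 1 or 2, WT NKT2 replicate 3, SKG NKT2 replicate 1 or 2, or WT NKT17 replicate 3 was left out, with adjusted p from 0.0331 to 0.0975. The effect of SKG on Il18rap differed between NKT17 and NKT2 (difference of log2 fold changes -1.32, SE 0.28, adjusted p = 0.0158). This was 1 of 2 chains of the 9 called in that difference, where 2.19% of all genes were called.

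Il18r1, the chain that binds IL-18, was at 192, 148 and 173 CPM in WT NKT1, 63.6, 69.9 and 66.0 CPM in WT NKT2 and 229, 209 and 309 CPM in WT NKT17. The SKG libraries held 155, 202 and 162 CPM in NKT1, 89.9, 112 and 101 CPM in NKT2 and 279, 255 and 314 CPM in NKT17. Only in NKT2 did the genotypes not overlap. There the gene rose 1.52-fold in SKG (log2 fold change 0.60, SE 0.15, adjusted p = 0.0106), with differences of 0.36 and 0.76 in log2 CPM within the shared title tokens. The fold was close to the minimum of 1.5, and the call was lost without WT NKT2 replicate 1 (log2 fold change 0.57), without SKG NKT2 replicate 2 (0.53) and with upper-quartile scaling (0.58). It was also lost with the title token as a replicate block. NKT2 was lower than NKT1 by 2.58-fold in WT (log2 fold change 1.37, SE 0.15, adjusted p = 1.65e-07) and by 1.71-fold in SKG (log2 fold change 0.77, SE 0.15, adjusted p = 0.000343). NKT17 exceeded NKT2 by 3.75-fold in WT (log2 fold change 1.91, SE 0.15, adjusted p = 1.24e-09) and by 2.80-fold in SKG (log2 fold change 1.49, SE 0.15, adjusted p = 6.43e-08). Between NKT1 and NKT17 the WT difference was under the fold-change minimum (log2 fold change -0.54, adjusted p = 0.00564). It passed without WT NKT1 replicate 1 (-0.64), WT NKT17 replicate 1 (-0.63) or WT NKT17 replicate 2 (-0.68).

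Per length, Il18r1 exceeded Il18rap in each subset. The means were 35.8 ± 4.62 and 25.3 ± 4.02 RPKM in WT NKT1, 13.9 ± 0.670 and 1.29 ± 0.397 RPKM in WT NKT2, and 52.1 ± 11.0 and 12.7 ± 1.75 RPKM in WT NKT17.

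Il6ra, the chain that binds IL-6 (chr3:89673246-89717084, minus strand, ENSMUSG00000027947.7), was, with Ifngr1, 1 of 2 members in which no neighbours in the order of the 6 groups overlapped. In WT its level was 179, 191 and 220.3 CPM in NKT2, 26.4, 32.3 and 19.4 CPM in NKT17 and 2.66, 3.82 and 7.79 CPM in NKT1. In SKG it was 329, 315 and 301 CPM in NKT2, 47.2, 74.7 and 56.9 CPM in NKT17 and 9.48, 13.3 and 13.0 CPM in NKT1. In both genotypes NKT2 was highest and NKT1 lowest, and in each subset the 3 SKG libraries lay above the 3 WT libraries. NKT1 was 42.5-fold below NKT2 in WT (log2 fold change -5.41, SE 0.29, adjusted p = 3.88e-11) and 26.4-fold below it in SKG (log2 fold change -4.72, SE 0.27, adjusted p = 1.74e-10). NKT17 was 7.59-fold below NKT2 in WT (log2 fold change -2.92, SE 0.24, adjusted p = 2.78e-08) and 5.29-fold below it in SKG (log2 fold change -2.40, SE 0.23, adjusted p = 2.52e-07).

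Il6ra was higher in SKG than in WT by 2.58-fold in NKT1 (log2 fold change 1.37, SE 0.31, adjusted p = 0.0183), by 1.60-fold in NKT2 (log2 fold change 0.68, SE 0.22, adjusted p = 0.0688) and by 2.30-fold in NKT17 (log2 fold change 1.199, SE 0.24, adjusted p = 0.00266). Within the shared title tokens the differences in log2 CPM were 1.24 and 0.75 in NKT1, 0.78 and 0.51 in NKT2 and 0.54 and 1.93 in NKT17. The NKT1 call rested on 20 to 75 counts a library and was lost when only the NKT1 libraries were fitted (adjusted p = 0.250). The NKT2 call was lost with the title token as a replicate block and with no filter on low counts (adjusted p = 0.106). It was also lost when WT NKT2 replicate 1, WT NKT2 replicate 2 or any of the 3 SKG NKT2 libraries was left out. The adjusted p was then 0.163, 0.182, 0.167, 0.141 and 0.119 in turn, with the SKG libraries higher each time. The effect of SKG on Il6ra was not shown to differ between subsets. The difference of log2 fold changes was -0.69 for NKT2 minus NKT1 (adjusted p = 0.447), -0.17 for NKT17 minus NKT1 (adjusted p = 0.914) and 0.52 for NKT17 minus NKT2 (adjusted p = 0.628). The first of these passed without WT NKT1 replicate 3 (-1.25, adjusted p = 0.0380).

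Markers of other cells moved in the same comparisons. In NKT17, where Il6ra rose, the NKT2 markers Ccr7 (log2 fold change 1.14, SE 0.35, adjusted p = 0.0610) and Il17rb (log2 fold change 1.24, SE 0.38, adjusted p = 0.0636) also rose in SKG, while the NKT2 marker Il4 fell (log2 fold change -1.06, SE 0.32, adjusted p = 0.0494). The 6 NKT2 markers summed to 1543 to 1672 CPM in WT NKT17 and 1755 to 1903 CPM in SKG NKT17. Markers of double-positive thymocytes summed to 28.7 to 37.9 CPM in WT NKT17 and 52.9 to 84.1 CPM in SKG NKT17, and to 35.6 to 42.5 and 59.2 to 74.8 CPM in WT and SKG NKT2. Of these 8 markers 4 were at 0 in SKG NKT17 (Rag1, Rag2, Dntt and Arpp21) and 3 in SKG NKT2 (Cd8a, Rag1 and Arpp21). Markers of conventional CD4 and regulatory T cells, of which 0 of 5 were at 0 in SKG NKT17 and 1 of 5 (Foxp3) in SKG NKT2, summed to 1.95 to 6.31 CPM in WT NKT17 and 20.8 to 28.5 CPM in SKG NKT17. In NKT2 that sum was 34.3 to 64.3 CPM in WT and 71.6 to 81.8 CPM in SKG. B cell markers summed to 8.51 to 12.2 CPM in WT NKT17 and 25.6 to 41.9 CPM in SKG NKT17, with 4 of 7 at 0 in the latter (Ms4a1, Pax5 and Ebf1 among them), and Cd79b rose (log2 fold change 1.91, SE 0.40, adjusted p = 0.00264). In NKT1 the NKT2 marker Il4 rose in SKG (log2 fold change 1.65, SE 0.32, adjusted p = 0.00614). Markers of NK cells, of which 1 of 6 (Klra8) was at 0, summed to 785 to 1517 CPM in WT NKT1 and 499 to 887 CPM in SKG NKT1. These ranges overlapped, and the sum was at most 3.50 CPM in the other subsets. The paper counts Klrc1, which is in that list, among NK receptor genes that WT NKT1 cells transcribe highly. In NKT1 these markers therefore do not single out NK cells. The 6 NKT1 markers, none of them at 0 in any group, summed to 313 to 363 CPM in WT NKT17 and 181 to 241 CPM in SKG NKT17, where Ifngr1 and Il18rap fell, with 1 called higher and 1 lower. In NKT1, where Ifngr1 fell as well, they summed to 4177 to 4831 CPM in WT and 3173 to 3569 CPM in SKG, and in NKT2 to 236 to 311 CPM in WT and 156 to 198 CPM in SKG, with 3 called lower there. The 6 NKT17 markers, again with none at 0, summed to 1.75 to 7.15 CPM in WT NKT2 and 6.61 to 14.3 CPM in SKG NKT2, where Il18r1 and Ifngr2 rose, with 1 called higher. Within NKT2 the 6 NKT2 markers summed to 2147 to 2439 CPM in WT and 1891 to 2328 CPM in SKG, with 0 called higher and 2 lower. Within NKT17 the 6 NKT17 markers summed to 2382 to 2483 CPM in WT and 2389 to 2453 CPM in SKG, with 1 called higher and 2 lower. The part of these markers in the receptor differences was not tested.

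The promoter of Il6ra is shown because its level was highest in NKT2 (chr3:89913147-89913446, minus strand, RefSeq on GRCm38.p6). The capitals mark the match to the GATA site AGATAA, read on the opposite strand, 245 bases before the start site. As given above, 11.2% of the windows of all genes hold that site.
Il6ra: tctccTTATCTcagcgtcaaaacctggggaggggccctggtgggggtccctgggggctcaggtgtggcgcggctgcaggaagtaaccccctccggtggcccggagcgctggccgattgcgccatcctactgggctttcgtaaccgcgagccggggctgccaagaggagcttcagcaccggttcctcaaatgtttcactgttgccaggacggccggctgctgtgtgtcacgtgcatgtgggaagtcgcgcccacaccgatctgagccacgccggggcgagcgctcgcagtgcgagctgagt

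Il6st, the signalling chain gp130 (chr13:113265216-113297068, plus strand, ENSMUSG00000021756.5), was low throughout, at 2.69 to 21.4 CPM over the 18 libraries. Its mean was 16.1 ± 5.24 CPM in WT NKT1 and 10.6 ± 0.593 CPM in SKG NKT1, 6.11 ± 0.854 and 10.9 ± 1.38 CPM in WT and SKG NKT2, and 10.6 ± 4.17 and 7.71 ± 4.94 CPM in WT and SKG NKT17. In the order of group means each neighbouring pair overlapped. The one call among its 9 direct comparisons was NKT1 over NKT2 in WT (log2 fold change 1.4, SE 0.41, adjusted p = 0.0117). Between SKG and WT the log2 fold changes were -0.61 in NKT1, 0.84 in NKT2 and -0.47 in NKT17, with adjusted p of 0.552, 0.254 and 0.566. In NKT2 the 3 SKG libraries (9.47, 11.2 and 12.2 CPM) lay above the 3 WT libraries (6.95, 5.24 and 6.14 CPM) without reaching the threshold. Per length, Il6ra exceeded Il6st in NKT2, with 58.9 ± 6.36 against 1.17 ± 0.164 RPKM in WT and 94.2 ± 4.28 against 2.10 ± 0.265 RPKM in SKG. In WT NKT1 the order was the other way, with 1.42 ± 0.806 RPKM of Il6ra and 3.09 ± 1.01 RPKM of Il6st. It was not so in SKG NKT1, with 3.57 ± 0.639 RPKM of Il6ra and 2.03 ± 0.114 RPKM of Il6st. Rhbdf2, which supports the protease that sheds the IL-6 receptor, was higher in SKG NKT17 (log2 fold change 0.70, SE 0.23, adjusted p = 0.0628), a call lost without WT NKT17 replicate 1 or 2 or SKG NKT17 replicate 1 or 3 (adjusted p from 0.159 to 0.248). It was 1 of 3 listed shedding genes called in NKT17, where 8.37% of all genes were called. In NKT1 and NKT2 edgeR called 0 of the 3 (all genes 3.27% and 7.95%). There 0 were at an unadjusted p under 0.05 and 0 were called by DESeq2.

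Il27ra (chr8:86554186-86566488, minus strand, ENSMUSG00000005465.7) was abundant in each subset. Its mean level was 1173 ± 90.2 CPM in WT NKT17, 1039 ± 114 CPM in WT NKT2 and 602 ± 125 CPM in WT NKT1, and in SKG 1012 ± 79.7, 936 ± 17.9 and 522 ± 25.7 CPM in the same order. NKT1 was lowest in both genotypes, and the 4 groups of NKT2 and NKT17 overlapped in turn. NKT1 was below NKT17 by 1.95-fold in WT (log2 fold change -0.96, SE 0.12, adjusted p = 1.00e-06) and by 1.94-fold in SKG (log2 fold change -0.96, SE 0.12, adjusted p = 1.42e-06). It was below NKT2 by 1.73-fold in WT (log2 fold change -0.79, SE 0.12, adjusted p = 1.75e-05) and by 1.79-fold in SKG (log2 fold change -0.84, SE 0.12, adjusted p = 1.16e-05). Between SKG and WT the log2 fold changes were -0.20, -0.15 and -0.21 in NKT1, NKT2 and NKT17, and none was called. Per length, at 439 ± 33.8 RPKM in WT NKT17, it stood far above Il6st, its partner for IL-27, at 2.03 ± 0.801 RPKM. Of its exons 9 bases overlap those of Palm3 on the opposite strand, and whether the counting used strand is not given in the sources used here.

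The chains of the IFN-γ receptor were split between subsets. Ifngr1 (chr10:19311755-19330035, plus strand, ENSMUSG00000020009.6), which binds IFN-γ, was at 1375, 1307 and 1466 CPM in WT NKT1, 755, 570.4 and 734 CPM in WT NKT17 and 89.7, 103 and 93.9 CPM in WT NKT2. In SKG it was at 804, 776 and 830.4 CPM in NKT1, 372, 292 and 349 CPM in NKT17 and 74.2, 78.1 and 87.4 CPM in NKT2. No neighbours in the order of the 6 groups overlapped, and in each subset the SKG libraries lay below the WT libraries. NKT1 exceeded NKT2 by 14.5-fold in WT (log2 fold change 3.86, SE 0.13, adjusted p = 1.41e-15) and by 10.0-fold in SKG (log2 fold change 3.33, SE 0.12, adjusted p = 7.86e-15). NKT17 exceeded NKT2 by 7.19-fold in WT (log2 fold change 2.85, SE 0.12, adjusted p = 1.00e-13) and by 4.22-fold in SKG (log2 fold change 2.08, SE 0.12, adjusted p = 9.47e-12). NKT1 exceeded NKT17 by 2.01-fold in WT (log2 fold change 1.01, SE 0.11, adjusted p = 1.89e-07) and by 2.38-fold in SKG (log2 fold change 1.25, SE 0.11, adjusted p = 1.03e-08).

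In SKG cells Ifngr1 fell 1.72-fold in NKT1 (log2 fold change -0.78, SE 0.11, adjusted p = 0.000188) and 2.03-fold in NKT17 (log2 fold change -1.02, SE 0.11, adjusted p = 1.82e-06). Within the shared title tokens the differences in log2 CPM were -0.70 and -0.92 in NKT1 and -0.62 and -1.33 in NKT17. In NKT2, where the gene was low, the difference was not called (log2 fold change -0.26, SE 0.12, adjusted p = 0.206). The effect of SKG differed between NKT17 and NKT2 (difference of log2 fold changes -0.77, SE 0.16, adjusted p = 0.0130). Between NKT2 and NKT1 the difference was 0.53 (adjusted p = 0.0889), under the fold-change minimum. In that contrast edgeR called 0 of 9 chains (4 at an unadjusted p under 0.05, 0 called by DESeq2) and 3.87% of all genes, and Il18rap was called when WT NKT2 replicate 3 was left out (1.04) and Il18r1 without SKG NKT1 replicate 2 (0.72). Between NKT17 and NKT1 edgeR called 0 of 9 chains (1 at an unadjusted p under 0.05, 0 called by DESeq2) and 4.17% of all genes, with -0.24 for Ifngr1 (adjusted p = 0.526).

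Ifngr2 (chr16:91547317-91565414, plus strand, ENSMUSG00000022965.7), the chain needed for signalling, was nearly absent from NKT1, with 2, 1 and 11 counts in the WT NKT1 libraries and 6, 2 and 0 counts in the SKG NKT1 libraries. In WT it was at 48.4, 51.9 and 49.95 CPM in NKT2 and 72.4, 62.1 and 63.0 CPM in NKT17. In SKG it was at 113, 114 and 99.9 CPM in NKT2 and 88.8, 82.0 and 91.6 CPM in NKT17. The NKT1 libraries of the genotypes overlapped, and each of the other 4 groups stood apart from its neighbours. The gene passed the filter through NKT2 and NKT17, so its differences from NKT1 are a description. The fitted log2 fold change of NKT1 against NKT2 was -6.04 in WT (SE 0.40) and -7.70 in SKG, and that of NKT1 against NKT17 was -6.43 in WT and -7.38 in SKG. The size of these values hangs on a few counts. Without WT NKT1 replicate 3, which held 11 of the 14 counts, the WT values were -7.70 and -8.08. Without SKG NKT1 replicate 1 the SKG values were -9.01 and -8.68, and without SKG NKT1 replicate 3 they were -7.09 and -6.76.

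Ifngr2 rose 2.17-fold in SKG NKT2 (log2 fold change 1.12, SE 0.26, adjusted p = 0.00807), with differences of 1.11 and 1.19 in log2 CPM within the shared title tokens. In NKT17 the 3 SKG libraries lay above the 3 WT libraries without a call (log2 fold change 0.41, SE 0.26, adjusted p = 0.387). Per length, Ifngr1 exceeded Ifngr2 most in NKT1, with 486 ± 28.0 against 0.240 ± 0.302 RPKM in WT. In WT NKT17 the levels were 241 ± 35.5 and 19.9 ± 1.73 RPKM and in WT NKT2 33.5 ± 2.34 and 15.1 ± 0.524 RPKM. In SKG NKT2 Ifngr2 reached 32.9 ± 2.36 RPKM beside 28.1 ± 2.37 RPKM of Ifngr1. That order depends on the length used. Per length of the longest transcript the means were 33.5 RPKM for Ifngr2 and 37.8 RPKM for Ifngr1.

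The promoters of the IFN-γ receptor chains are shown because the levels of these genes ran in opposite directions between NKT1 and NKT2. Neither window (Ifngr1 chr10:19591699-19591998 and Ifngr2 chr16:91546809-91547108, both plus strand, RefSeq on GRCm38.p6) held any of the 4 motifs, so no letters are in capitals, which says only that these letters are not in the windows.
Ifngr1: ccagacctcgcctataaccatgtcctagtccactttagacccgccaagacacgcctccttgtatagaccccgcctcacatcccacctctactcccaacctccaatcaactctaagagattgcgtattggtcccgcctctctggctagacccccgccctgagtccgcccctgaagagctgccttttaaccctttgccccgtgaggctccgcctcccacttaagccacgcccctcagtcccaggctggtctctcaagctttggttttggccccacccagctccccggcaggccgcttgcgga
Ifngr2: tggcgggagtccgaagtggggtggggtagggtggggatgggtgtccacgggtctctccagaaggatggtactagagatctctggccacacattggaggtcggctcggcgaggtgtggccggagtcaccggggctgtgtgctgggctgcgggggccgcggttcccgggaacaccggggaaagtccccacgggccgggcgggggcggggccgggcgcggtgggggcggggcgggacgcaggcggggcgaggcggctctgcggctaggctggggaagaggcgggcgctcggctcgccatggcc

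Of 13 listed genes of the ligands and their families 8 had a count and 3 passed the filter (Ifng, Lif and Osm). In each SKG comparison 0 of 3 were called by edgeR, with 0 at an unadjusted p under 0.05 and 0 called by DESeq2. Of all genes 3.27%, 7.95% and 8.37% were called in NKT1, NKT2 and NKT17. Ifng, the gene of IFN-γ, was at 218 ± 83.1 CPM in WT NKT1 and 202 ± 36.5 CPM in SKG NKT1 (log2 fold change -0.11, adjusted p = 0.917) and at most 2.65 CPM on average in NKT2 and NKT17. The subset with the most Ifng was thus the one with the most Ifngr1 and the least Ifngr2.

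Among the JAK kinases and STAT factors, which carry the signals of all these receptors but that of IL-18, 11 of 11 were tested, and 1 was called between SKG and WT in each subset (all genes 3.27%, 7.95% and 8.37% in NKT1, NKT2 and NKT17). In NKT2 that was Stat4. This factor, the main one of the IL-12 receptor, was at 436 ± 7.27 CPM in WT NKT1 and 1.49 ± 0.834 CPM in WT NKT2, and rose to 7.74 ± 5.29 CPM in SKG NKT2 (log2 fold change 2.46, SE 0.51, adjusted p = 0.00603). That rise was 1.68 without SKG NKT2 replicate 3. A further call appeared without WT NKT1 replicate 3 in NKT1, and without SKG NKT2 replicate 3 or WT NKT17 replicate 3 in NKT17, giving 2 each time. The median log2 fold changes of the 11 genes were -0.20, 0.033 and -0.10 in NKT1, NKT2 and NKT17.

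Some IFN-γ response genes were lower in SKG NKT1 and NKT17, and most were not called. Of 26 tested genes of that list, 6 were lower and 0 higher in NKT1, where 1.82% of all genes were called lower. In NKT17 8 were lower and 0 higher, where 4.54% of all genes were called lower, and in NKT2 1 was higher and 0 lower (all genes, either way, 7.95%). The median log2 fold changes of the list were -0.42, -0.38 and -0.020 in NKT1, NKT17 and NKT2. The NKT1 count was 3 without SKG NKT1 replicate 3, and the NKT17 count 4 without WT NKT17 replicate 2 and 5 without SKG NKT17 replicate 3. The single NKT2 call, Tgtp1 (log2 fold change 0.67, SE 0.23, adjusted p = 0.0750), was lost without WT NKT2 replicate 2 or 3 or any of the 3 SKG NKT2 libraries. The NKT2 count was 0 without WT NKT2 replicate 2 or SKG NKT2 replicate 2, and 2 without WT NKT2 replicate 1 or SKG NKT2 replicate 1. Irf8, an interferon-induced transcription factor, fell from 25.96 ± 5.20 to 3.05 ± 0.681 CPM in NKT17 (log2 fold change -3.09, SE 0.33, adjusted p = 1.20e-06) and from 73.0 ± 2.79 to 31.8 ± 5.72 CPM in NKT1 (log2 fold change -1.196, SE 0.27, adjusted p = 0.0165). The NKT1 call of Irf8 was lost without SKG NKT1 replicate 2 (adjusted p = 0.113). Gbp6, a guanylate-binding protein, fell in NKT1 (log2 fold change -0.94, SE 0.22, adjusted p = 0.0200) and NKT17 (log2 fold change -1.16, SE 0.22, adjusted p = 0.00101), and lost the NKT1 call without SKG NKT1 replicate 3 (adjusted p = 0.122). Irf9, a partner of STAT factors, fell in NKT1 (log2 fold change -0.88, SE 0.15, adjusted p = 0.00147), and Gbp9 in NKT17 (log2 fold change -0.65, SE 0.14, adjusted p = 0.00503). The Gbp genes and Tgtp1 have near-identical copies, so their counts are uncertain. In WT cells the list was higher in NKT1 than in NKT2 for 11 genes and lower for 0, where 13.7% of all genes were called higher. Against NKT17 11 were higher and 1 lower, where 11.2% were called higher.

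**Figure D5:**
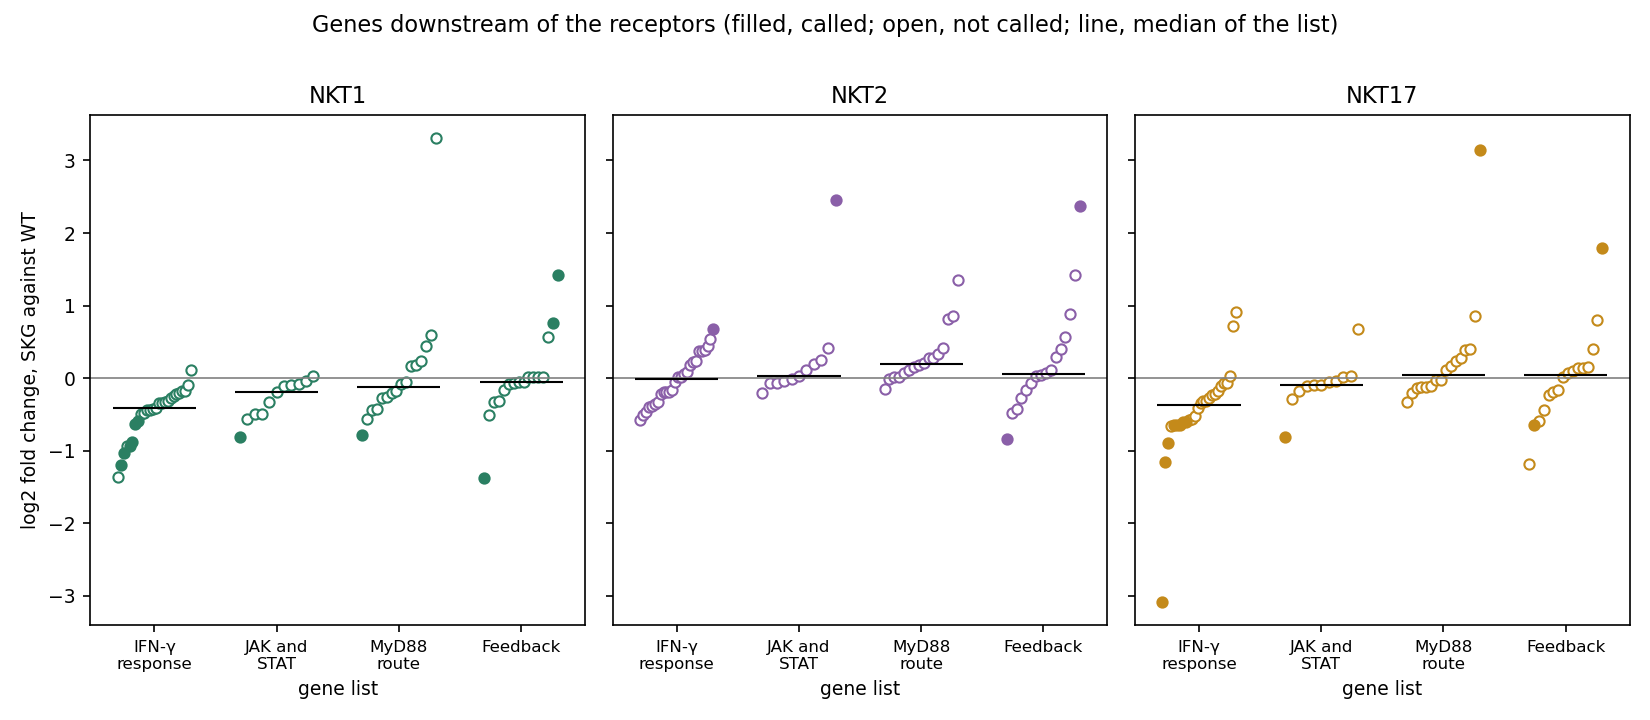
Log2 fold change of SKG against WT for the genes of 4 lists downstream of the receptors, in NKT1, NKT2 and NKT17, sorted within each list. Filled points were called, open points were not, and the line is the median of the list. In NKT1 and NKT17 the called IFN-γ response genes all lie below 0, and in NKT2 the single called one lies above 0.

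A few feedback inhibitors of cytokine receptors were called in each subset. Of 16 tested, 2 were higher and 1 lower in SKG NKT1 (all genes, either way, 3.27%), and 1 was higher and 1 lower in NKT2 (7.95%) and in NKT17 (8.37%), where that is close to the share of all genes. The median log2 fold changes were -0.057, 0.061 and 0.038. Cish, an inhibitor induced by cytokine signals through STAT5, rose in NKT2 from 14.3 ± 3.93 to 74.3 ± 9.53 CPM (log2 fold change 2.38, SE 0.23, adjusted p = 3.09e-07) and in NKT17 from 28.6 ± 8.54 to 99.2 ± 21.7 CPM (log2 fold change 1.80, SE 0.22, adjusted p = 8.22e-06). In NKT1 Cish was called too (log2 fold change 0.76, SE 0.21, adjusted p = 0.0502), but not without WT NKT1 replicate 2 or 3 or any of the 3 SKG NKT1 libraries (adjusted p from 0.104 to 0.157). Socs2 rose in NKT1 (log2 fold change 1.42, SE 0.32, adjusted p = 0.0246), and Socs3, the main inhibitor of gp130, fell there (log2 fold change -1.38, SE 0.30, adjusted p = 0.0193), a call lost when only the NKT1 libraries were fitted (adjusted p = 0.150). The second NKT2 call was Pias3 (-0.83, adjusted p = 0.0904) and the second NKT17 call Ptpn6 (-0.64, adjusted p = 0.0175). Pias3 was lost in 8 fits that left out a single library, with WT NKT2 replicate 2 among them, and Ptpn6 without WT NKT17 replicate 2 or SKG NKT17 replicate 2.

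The MyD88 route of the IL-18 receptor held few calls. Of 16 genes tested 1 was called in NKT1 (all genes 3.27%), 0 in NKT2 by edgeR (all genes 7.95%, 1 of the 16 at an unadjusted p under 0.05, 0 by DESeq2) and 1 in NKT17 (all genes 8.37%). Irak2, a kinase of this route, fell in SKG NKT1 from 77.1 ± 5.77 to 44.7 ± 3.01 CPM (log2 fold change -0.79, SE 0.19, adjusted p = 0.0248), a call lost without SKG NKT1 replicate 1 or 2 (adjusted p = 0.131 and 0.103), and the count was 2 without WT NKT1 replicate 2. Irak3, an inhibitory member, rose in SKG NKT17 from 0.622 ± 0.550 to 5.85 ± 2.92 CPM (log2 fold change 3.14, SE 0.85, adjusted p = 0.0227), a call lost without SKG NKT17 replicate 2 (adjusted p = 0.103). In NKT2 the count was 1 without WT NKT2 replicate 1. Myd88 itself was at 165 ± 20.7 CPM in WT NKT1 and 122 ± 3.32 CPM in SKG NKT1, under the fold-change minimum (log2 fold change -0.44, adjusted p = 0.0449).

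Of the targets of STAT4 and IL-12, 11 of 14 listed genes were tested. In SKG NKT1 2 were lower and 0 higher, where 1.82% of all genes were called lower. Furin, a protease induced by IL-12, fell from 91.2 ± 1.59 to 20.8 ± 0.604 CPM (log2 fold change -2.13, SE 0.21, adjusted p = 2.35e-06), and Gadd45g fell too (log2 fold change -1.23, SE 0.31, adjusted p = 0.0309), though its call was lost without WT NKT1 replicate 1 or SKG NKT1 replicate 1 or 2, which left 1. In SKG NKT17, where 8.37% of all genes were called either way, 3 were higher and 0 lower, Prf1 (log2 fold change 2.45, SE 0.36, adjusted p = 0.000285, or 3.22 without WT NKT17 replicate 3), Gadd45g (log2 fold change 1.63, SE 0.31, adjusted p = 0.00118) and Furin (log2 fold change 0.92, SE 0.21, adjusted p = 0.00493). Furin and Gadd45g thus changed in opposite directions in NKT1 and NKT17. In SKG NKT2, where 7.95% of all genes were called either way, 2 were higher, Prf1 (2.98, adjusted p = 0.0829) and Gadd45b (1.77, adjusted p = 0.0695), and 0 were left without any of the 3 WT NKT2 libraries or without SKG NKT2 replicate 3. Both calls were also lost without SKG NKT2 replicate 2 (adjusted p = 0.210 and 0.215). That of Prf1 was lost as well without WT NKT1 replicate 2, WT NKT17 replicate 2 or SKG NKT17 replicate 3. The median log2 fold changes of the list were -0.33, 0.066 and 0.55 in NKT1, NKT2 and NKT17.

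Of the targets of STAT3, the factor used by IL-6, 15 of 17 were tested. In SKG NKT2, where Il6ra was highest, 3 were higher and 2 lower, where 7.95% of all genes were called (list median 0.86, all genes -0.0036). Pim1 and Rora were among those that rose, with Pim1 at 7.87 ± 3.56 CPM in WT and 39.6 ± 6.70 CPM in SKG (log2 fold change 2.32, SE 0.37, adjusted p = 0.000700) and Rora at 35.4 ± 11.6 and 88.6 ± 11.7 CPM (log2 fold change 1.33, SE 0.19, adjusted p = 5.53e-05). Hif1a fell in NKT2 (log2 fold change -0.71, SE 0.11, adjusted p = 8.64e-05) and NKT17 (log2 fold change -0.83, SE 0.11, adjusted p = 1.45e-05). Il21, the other gene that was lower in SKG NKT2, was at 4.67 ± 1.68 CPM in WT and 0.268 ± 0.464 CPM in SKG (adjusted p = 0.0405), a call lost without WT NKT2 replicate 1 or 3 or SKG NKT2 replicate 1 or 2. In NKT1 Rora was higher and Socs3 lower (all genes 3.27%), and in NKT17 Pim1 was higher and 3 genes lower, Hif1a, Il23r and Il17a (all genes 8.37%). The NKT17 call of Pim1 (log2 fold change 1.14, SE 0.32, adjusted p = 0.0366) was lost without WT NKT17 replicate 1 or 2 or SKG NKT17 replicate 1 or 3, and that of Il17a (adjusted p = 0.0939) without WT NKT17 replicate 1 or 3 or any of the 3 SKG NKT17 libraries, among others. The NKT1 count was 1 without WT NKT1 replicate 1 or 3 or SKG NKT1 replicate 1 or 2, and the NKT17 count 2 without WT NKT17 replicate 1 or SKG NKT17 replicate 1 or 3.

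Of 19 other receptor chains of these families 12 were tested. Between SKG and WT 0 were called in NKT1 by edgeR (all genes 3.27%, 1 of the 12 at an unadjusted p under 0.05, 0 by DESeq2), 1 in NKT2, which is near the share of all genes (7.95%), and 3 in NKT17 (all genes 8.37%), of which Il10rb rose (log2 fold change 0.80, SE 0.13, adjusted p = 0.000255) and Il23r and Il1r1 fell. Il1r1, a receptor of the IL-18 receptor family, was at 467 ± 36.3 CPM in WT NKT17 and 233 ± 15.3 CPM in SKG NKT17 (log2 fold change -1.005, SE 0.32, adjusted p = 0.0727), and its call was lost without WT NKT2 replicate 3 or any single NKT17 library. The NKT2 call, Il10ra, rested on a mean of 1.79 CPM in SKG (log2 fold change 2.20, SE 0.66, adjusted p = 0.0499) and was lost without WT NKT2 replicate 2 or 3 or SKG NKT2 replicate 1 or 2.

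As a description over the 18 libraries, which fall into 3 subsets, the genes whose log2 CPM ran most like each chain were found by Pearson's r. They were Cd244 (r = 0.98) and Ppm1j (0.97) for Il12rb2, and Fah (0.96) and Coro2b (0.96) for Il12rb1. One of those for Il18r1 was Sec11c (0.96). For Il18rap they were Pik3ap1 (0.97) and Ifngr1 (0.97), which is itself a member. Ifngr1 ran most like Ifi203 (0.98) and Pik3ap1 (0.97), and Ifngr2 most like Chdh (0.99) and the NKT2 marker Il17rb (0.99). For Il6ra the genes were Slc46a1 (0.96) and Mettl9 (0.95), and for Il27ra Ramp1 (0.98) and Clstn3 (0.97). Il6st had no gene as close, with Usp31 (0.79) and Usp16 (0.78). Which genes came first depended on the measure. By Spearman's rho, a correlation of ranks, the genes named here ranked from 2 to 45 for their chain. Ppm1j ranked 44, Fah 25, Clstn3 44 and Usp31 45, while Slc46a1, Ramp1, Ifi203 and Usp16 each ranked 2.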

How the data were processed

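RNA of sorted thymic NKT1, NKT2 and NKT17 cells of WT and SKG mice was converted to cDNA by a method of the Smart-seq2 kind, tagged with Tn5 and sequenced as short single-end reads. The authors deposited raw counts of reads per gene symbol, made with TopHat (1.4.1 in the submitters' processing notes) and HTSeq in union mode (0.7.1 in those notes), with no normalisation. The study's methods name mouse build mm9, while the processing notes list mm10 and hg19. The annotation and the strand setting are not given in the sources used here. No molecular identifiers were used, so counting intervals cover counting error only. The table also holds 2 columns of no listed sample, which were used in no step.

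Libraries were joined to groups by sample title and labels. Genes kept by edgeR's filterByExpr (11118 of 15582 with a count) were fitted in edgeR 4.0.16 (R 4.3.3) with TMM scaling and a robust quasi-likelihood model of 6 group means over 18 libraries, which left 12 residual degrees of freedom (common biological coefficient of variation 21.1%). The thresholds, adjusted p under 0.1 and 1.5-fold, are the study's. Standard errors are the log2 fold change over the square root of F. Levels per length use merged exons of the GENCODE annotation on NCBIM37, the build the study's methods name as mm9. log2 CPM values have a prior count of 2. The pipeline was tested on simulated data.

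The alternatives were DESeq2 1.42.0, RLE and upper-quartile scaling, no filter, a mean of at least 50 counts, adjusted p under 0.05, no fold-change minimum, only the libraries compared, a replicate block set by a token found in the titles, and leaving out single libraries, one by one. The members and lists were chosen with earlier results of these data known. The text names all members, the 2 genes most like each by r, and called genes of the lists, up to the 4 largest log2 fold changes a list in SKG comparisons (for WT subset comparisons, the largest each way), of which not all are given, and some genes are not reported here. Myd88, Zap70, the Hif1a value in NKT2 and the marker genes were named after their values were seen. Promoters were taken from RefSeq (GRCm38.p6) by symbol.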

Additional observations from a re-analysis of the deposited data

Results flagged for a closer look

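Of the 9 chains, 2 had an SKG effect that differed between NKT17 and NKT2 by a test of the difference itself, where 2.19% of all genes were called. For NKT2 minus NKT1 and NKT17 minus NKT1 edgeR called 0 of 9 (all genes 3.87% and 4.17%). In these 2 contrasts 4 and 1 chains were at an unadjusted p under 0.05, and DESeq2 called 0. For Ifngr1 the SKG effect in NKT17 minus that in NKT2 was -0.77 on the log2 scale (SE 0.16, adjusted p = 0.0130, edgeR), from log2 fold changes of -1.02 in NKT17 and -0.26 in NKT2. The SKG libraries were lower in 3 of 3 in both subsets. For Il18rap the difference was -1.32 (SE 0.28, adjusted p = 0.0158, edgeR), from -0.72 in NKT17, where the 3 SKG libraries lay below the 3 WT libraries, and 0.60 in NKT2, where they overlapped. Groups of 3 are too small for a test of single outlying libraries.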

How the results depend on the processing

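Of 108 results for single chains (9 chains in 12 comparisons), 53 were called, and 48 of the 53 kept their call and direction in the alternatives tried. Among the 48 are the 8 calls of Il12rb2 and Ifngr2 between NKT1 and the other subsets. The filter fixed these 8 in advance, so that they kept their call is no support. Of the 55 results not called, 46 were called in none of the alternatives. The number of chains called between SKG and WT in NKT1 fell from 2 to 1 when only the NKT1 libraries were fitted. In NKT2 it ranged from 1 to 4 over the fits that left out 1 library. The difference of SKG effects between NKT2 and NKT1 went from 0 calls to 1 with no fold-change minimum, and lay between 0 and 1 with 1 library left out. The cause was not tested.

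The replicate block, a token in the sample titles whose meaning is not given, left 1 chain called between SKG and WT in NKT2 (Ifngr2), with Il18r1 and Il6ra not called there, and moved the log2 fold change of Il18r1 in NKT1 to -0.0029. Which libraries came from the same mice is not given in the sources used here. Deviations of same-token libraries from their group means had r of -0.15 to 0.0900 between genotypes (0 of 18 pairs over 0.1) and of -0.061 to 0.35 within a genotype (12 of 18 pairs over 0.1). The main fit treated libraries of different subsets as independent, and no fit used a block of genotype and token together. The p-values between subsets therefore do not account for that likeness within a genotype.

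Directions turned, among values that were not called, on leaving out 1 library and, for Il18r1, with the block. The SKG log2 fold changes then ranged from -0.096 to 0.11 for Il18r1 and from -1.83 to 1.11 for Ifngr2 in NKT1, from -0.018 to 1.74 for Il12rb2 in NKT2, and from -0.16 to 0.11 for Il12rb1 in NKT17. Il6st between NKT1 and NKT2 in SKG ranged from -0.14 to 0.040. Differences of SKG effects ranged from -0.14 to 0.16 for Il27ra (NKT2 minus NKT1). For NKT17 minus NKT1 they ranged from -0.72 to 0.17 for Il6ra, -0.44 to 0.53 for Il6st, -0.19 to 0.0997 for Il27ra and -0.70 to 2.23 for Ifngr2. For NKT17 minus NKT2 they ranged from -0.052 to 0.23 for Il12rb1, -0.20 to 3.73 for Il12rb2 and -0.14 to 0.018 for Il27ra.

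Over all genes, calls between SKG and WT went from 364 to 207 in NKT1 with only the libraries compared and from 931 to 1398 in NKT17 with no fold-change minimum. For the difference of SKG effects between NKT17 and NKT1 they went from 464 to 278 at adjusted p under 0.05, 308 without SKG NKT1 replicate 1 and 294 without SKG NKT17 replicate 3. Between NKT17 and NKT2 they went from 244 to 155 at adjusted p under 0.05 and 157 without SKG NKT17 replicate 1. Upper-quartile scaling moved the median of all genes by -0.10 in NKT1 against NKT2 in WT, and the share of calls that were higher from 49.97% to 40.9%. Lengths of the longest transcript moved 19 of the levels per length. Il12rb2 outside NKT1 and Ifngr2 in NKT1 rest on a few counts, so differences between genotypes there were not detectable at this depth.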
